A study of Rattus norvegicus with 6 samples.

Results

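Transcripts of the glucocorticoid receptor, of the enzymes that activate and inactivate its hormone, and of classical target genes were measured in Achilles tendons of rats aged 7 days and 1 day after birth (day 7 and day 1). The 6 genes are Nr3c1 (the receptor), Hsd11b1 and Hsd11b2 (the enzymes), and the targets Sgk1, Fkbp5 and Tsc22d3. They were taken by symbol from the probe sets that the array's annotation assigns to 1 gene alone, and made up 6 of 14217 genes and 8 of 31042 probe sets. Each age had 3 arrays. Each array carried RNA pooled from at least 2 animals. No allele, agent or treatment is named for either age, and strain, sex and hour of harvest are not stated in the labels.

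Glucocorticoids are adrenal steroid hormones, corticosterone being the main one in the rat. The receptor waits in the cytoplasm in a complex with the chaperone Hsp90 and its co-chaperones. Once bound by hormone it enters the nucleus, where it raises the transcription of some genes and lowers that of others. Within a cell, the enzyme encoded by Hsd11b1 regenerates active hormone from its inert 11-keto form and the enzyme encoded by Hsd11b2 carries out the opposite reaction. In tendon, glucocorticoids given as drugs are known to reduce cell proliferation and collagen synthesis.

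Values are probe set intensities on a linear scale. The bacterial trp control probe sets, which have no target in rat RNA, read between 3.74 and 4.76, and the median probe set read between 20.5 and 21.1 on the 6 arrays. The gene-level probe sets of all 6 genes lay well above these controls, with age means from 46.7 to 348. A change is the day 7 mean less the day 1 mean of log2(intensity + 1), and changes were tested with limma across all 31042 probe sets, with Benjamini-Hochberg adjusted p under 0.05 as the threshold for a call. Intensities of different probe sets cannot be set against each other. Where values of a pair of genes are subtracted on an array, or those of marker genes summed, only the shift between the ages is read.

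Of the 6 genes, Sgk1 rose and Fkbp5 fell on day 7 relative to day 1, so that these classical glucocorticoid-induced genes moved in opposite directions. The other 4 genes, Hsd11b2, Tsc22d3, Nr3c1 and Hsd11b1, had changes above 0 but did not pass the threshold. The call of 1 higher gene stands beside a background of 1.93% of 14217 genes called higher, and that of 1 lower gene beside 3.15% called lower, or 5.08% either way. At an unadjusted p under 0.05, 10.6% of all genes were higher and 17.0% lower. Among all called genes 38.0% were higher, a share that became 52.4% after quantile normalization. For 2 of the 6 genes, Sgk1 and Hsd11b2, no day 1 array reached the day 7 range (background 14.0%), and for 1, Fkbp5, all day 7 arrays were the lower ones (background 19.1%, or 33.1% either way). In whole tendons, fewer cells of a type and less RNA per cell cannot be told apart, for these genes and all that follow. The median log2 change of the 6 genes was 0.31, against -0.01 over all genes.

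**Figure D1:**
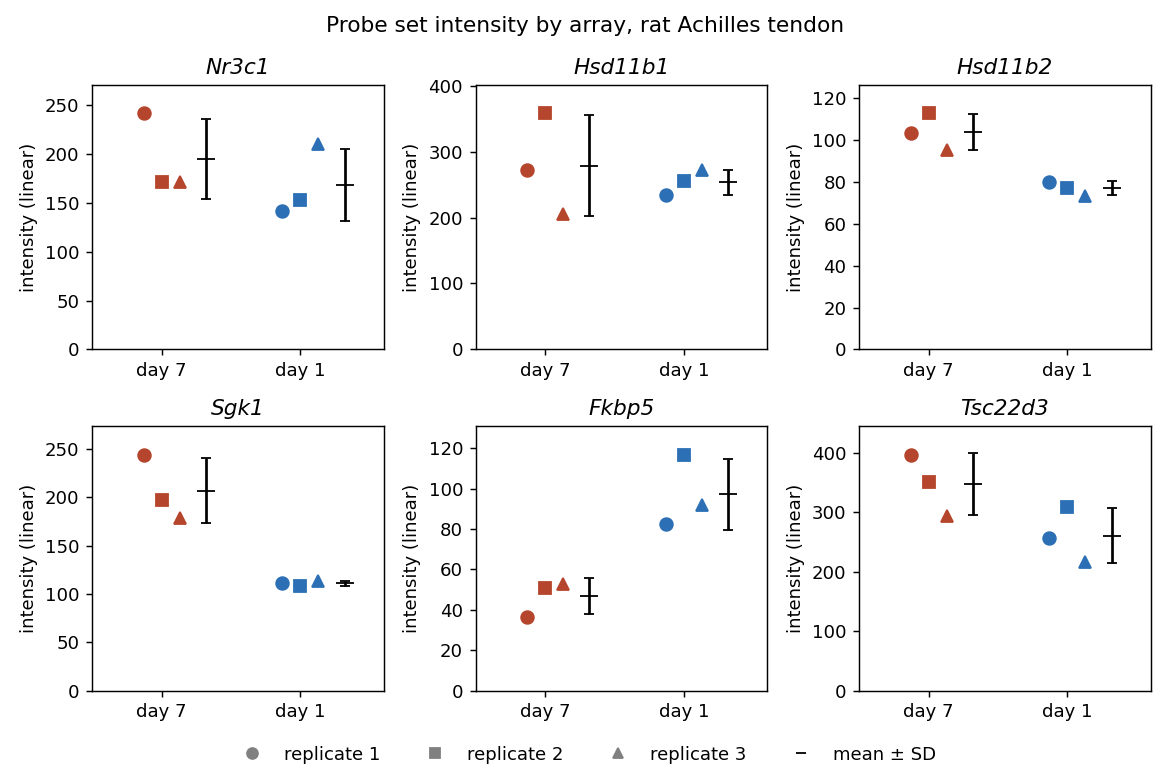
Intensity (linear scale, from 0) of the 6 genes on each array, with day 7 in red, day 1 in blue, marker shape for the replicate, and a black bar for the mean ± SD of 3 arrays. The groups are apart for Sgk1, Hsd11b2 and Fkbp5 and overlap for Nr3c1, Hsd11b1 and Tsc22d3.

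The receptor transcript itself was not called different between the ages. Nr3c1 had intensities of 242, 171 and 171 in day 7 tendons, against 142, 153 and 211 in day 1 tendons (replicates 1, 2 and 3). The ages overlap, because day 1 replicate 3 lay above 2 of the 3 day 7 arrays. The log2 change was 0.21 (SE 0.20, 95% interval -0.24 to 0.66; limma adjusted p = 0.571), so changes between 0.846-fold and 1.58-fold lie within the interval. A second Nr3c1 probe set spanned 7.27 to 8.16 in day 7 tendons and 5.16 to 7.18 in day 1 tendons, close to the trp controls, and was not called (log2 change 0.28; adjusted p = 0.261).

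Neither enzyme of hormone interconversion passed the threshold. Hsd11b1, which makes active hormone, had intensities of 273, 358 and 205 in day 7 tendons and of 234, 255 and 272 in day 1 tendons. The day 7 arrays spread on both sides of all day 1 arrays, with an SD of 76.8 on day 7 and of 19.2 on day 1 (n = 3 each). Its log2 change was 0.10 (SE 0.20, 95% interval -0.35 to 0.55; adjusted p = 0.801), and its sign turned without day 7 replicate 2 (-0.10; adjusted p = 0.768).

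Hsd11b2, the inactivating enzyme best known from kidney and placenta, had intensities of 103, 113 and 95.5 on day 7, against 80.1, 77.3 and 73.6 on day 1. Every day 7 array lay above every day 1 array. The log2 change was 0.42 (SE 0.11, 95% interval 0.17 to 0.68), a fold change of 1.34, and the limma adjusted p of 0.0752 missed the threshold. It passed after quantile normalization (log2 change 0.53; adjusted p = 0.0362) and with array weights (0.42; 0.0493). The log2 intensity of Hsd11b1 minus that of Hsd11b2 on the same array, which array scaling hardly touches, was 1.39, 1.66 and 1.09 on day 7 and 1.53, 1.71 and 1.87 on day 1. The ages overlapped in this difference, whose mean shift was -0.32 (day 7 minus day 1, given with no test).

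Sgk1 encodes a serum- and glucocorticoid-induced kinase that acts on ion channels and transporters. Its intensities were 244, 197 and 178 in day 7 tendons, against 111, 108 and 114 in day 1 tendons. The day 1 arrays lay within a narrow band (SD 2.64, n = 3), and all day 7 arrays lay above it, with a wider spread (SD 33.8, n = 3). Day 7 tendons thus had 1.84 times the day 1 level (0.88 ± 0.13 on the log2 scale, SE; limma adjusted p = 0.0223). It ranked 222nd of 14217 genes by the size of its rise, and 4.08% of all genes had a larger change in either direction. The change stayed between 0.75 and 0.98 when 1 array was left out, but leaving out day 1 replicate 1 (adjusted p = 0.0857), day 1 replicate 3 (0.0628) or day 7 replicate 1 (0.0833) ended the call, as did a fit without both arrays numbered 2 (0.0579).

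Fkbp5 encodes FKBP51, an Hsp90 co-chaperone that lowers the receptor's affinity for hormone and is itself induced by it, which makes it part of a negative feedback loop. Its intensities were 36.6, 50.7 and 52.9 in day 7 tendons, against 82.7, 117 and 91.8 in day 1 tendons. The highest day 7 array lay well below the lowest day 1 array. Its level was 2.06-fold lower in day 7 tendons (-1.04 ± 0.18 on the log2 scale, SE; limma adjusted p = 0.0303), and 2.53% of all genes had a larger change in either direction. A second Fkbp5 probe set also fell, to 5.86, 5.70 and 6.73 on day 7, against 13.1, 11.2 and 8.82 on day 1 (log2 change -0.75; adjusted p = 0.0418), although it lay near the trp controls on day 7. The direction held without any 1 array, with changes between -1.15 and -0.88, but the call held only without day 7 replicate 2 (adjusted p = 0.0469). It was lost without day 1 replicate 1 (0.0753), 2 (0.0508) or 3 (0.0756), without day 7 replicate 1 (0.110) or 3 (0.0609), without both arrays numbered 2 (0.0586), and with a pseudocount of 16 (0.0524).

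Tsc22d3, which encodes the glucocorticoid-induced leucine zipper protein GILZ, a mediator of anti-inflammatory effects of the hormone, had intensities of 398, 352 and 294 in day 7 tendons, against 257, 309 and 217 in day 1 tendons. Day 1 replicate 2 lay above day 7 replicate 3, so the ages overlapped. The log2 change was 0.42 (SE 0.17, 95% interval 0.03 to 0.80; unadjusted p = 0.0378, limma adjusted p = 0.197), and it was not called in any of the 15 alternatives.

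The opposite moves of Sgk1 and Fkbp5 can be followed on each array. The log2 intensity of Sgk1 minus that of Fkbp5 was 2.70, 1.94 and 1.73 on day 7, against 0.42, -0.11 and 0.30 on day 1. The shift between the ages was 1.92, and every day 7 array lay above every day 1 array. The pair was chosen for its opposite changes, so this is a description with no test.

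**Figure D2:**
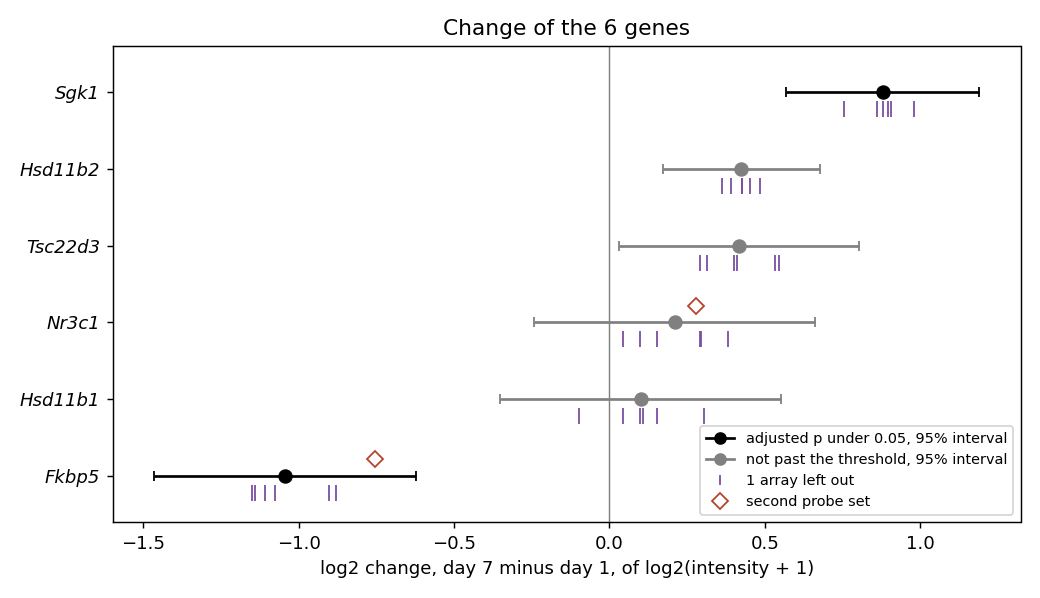
Log2 change (day 7 minus day 1) of each of the 6 genes with its 95% interval from limma, black where the adjusted p was under 0.05 and grey otherwise. Violet ticks show the 6 fits without 1 array and open diamonds the second probe sets of Nr3c1 and Fkbp5. Sgk1 (0.88) and Fkbp5 (-1.04) lie on opposite sides of 0, and only the ticks of Hsd11b1 cross it.

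Among the 3 target genes, Sgk1 and Fkbp5 were called in opposite directions and Tsc22d3 was not called. The sequences before their transcription starts are shown side by side as a description. A part of these sequences in the changes was not tested. RefSeq windows of 300 bases (250 before and 50 after a start, GRCr8) were matched by symbol for 4 of the 6 genes, 9 windows in all. For genes with several starts the most downstream window is given, on the minus strand in each case, written 5′ to 3′. Capitals mark matches, on either strand, to the TATA box TATAAA, the CCAAT box CCAAT and the GC box GGGCGG.
Sgk1 (chr1:24804782-24805081): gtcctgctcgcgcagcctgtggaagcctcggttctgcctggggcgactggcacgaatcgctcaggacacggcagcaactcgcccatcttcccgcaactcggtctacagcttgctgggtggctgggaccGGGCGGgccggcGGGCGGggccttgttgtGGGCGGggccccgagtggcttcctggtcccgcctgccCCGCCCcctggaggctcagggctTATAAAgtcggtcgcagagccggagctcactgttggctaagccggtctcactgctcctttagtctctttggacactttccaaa
Fkbp5 (chr20:6543506-6543805): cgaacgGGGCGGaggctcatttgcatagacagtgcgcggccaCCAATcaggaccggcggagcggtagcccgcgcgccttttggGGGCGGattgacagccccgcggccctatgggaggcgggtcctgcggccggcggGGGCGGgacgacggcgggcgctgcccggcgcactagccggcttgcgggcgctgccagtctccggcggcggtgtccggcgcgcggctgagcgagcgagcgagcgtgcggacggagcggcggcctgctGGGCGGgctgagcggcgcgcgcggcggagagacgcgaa
Tsc22d3 (chrX:109009985-109010284): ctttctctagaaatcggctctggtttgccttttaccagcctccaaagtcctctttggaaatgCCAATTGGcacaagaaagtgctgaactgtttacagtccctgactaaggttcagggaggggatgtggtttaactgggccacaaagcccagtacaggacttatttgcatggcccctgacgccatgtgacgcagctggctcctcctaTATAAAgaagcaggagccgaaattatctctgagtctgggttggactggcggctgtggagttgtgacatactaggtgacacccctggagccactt

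The windows differ in composition, also between starts of a gene. The printed Fkbp5 window had 77.0% G and C and 52 CpG dinucleotides, the Sgk1 window 66.0% and 23, and the Tsc22d3 window 50.7% and 5, against medians of 51.7% and 7 over 33469 windows. The windows not printed had 51.7% and 13, and 40.7% and 3, for Sgk1, and 73.0% and 32, and 52.0% and 13, for Tsc22d3. Of these 4 windows only the second of Sgk1 held a TATA box. The first of Sgk1 held 2 GC boxes and its second 0, and those of Tsc22d3 held 3 and 1. The windows of Nr3c1, also not printed, had 79.0% and 49 with 4 GC boxes, and 66.0% and 31 with 1 GC box. In the printed windows Sgk1 had 4 GC boxes and a TATA box that starts at base 218, Tsc22d3 had a TATA box at base 207 and 2 overlapping CCAAT matches on opposite strands, and Fkbp5 had 4 GC boxes, 1 CCAAT box and no TATAAA. Of all windows 14.2% held TATAAA, 37.5% CCAAT and 33.1% GGGCGG, and of the 9 windows 3, 2 and 7 did. The glucocorticoid response palindrome (AGAACA, any 3 bases, TGTTCT), searched on both strands, was in none of the 9 windows and in 0.0149% of all windows. Its half-site TGTTCT, which the palindrome contains, was in none of the 9 and in 20.7% of all. Response elements of these genes can lie far from the start, so these letters bear on the windows alone.

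Of the receptor's 12 measured partners (chaperones, co-chaperones and others), Ppid and Hsp90ab1 fell and none rose (2 of 12, against a background of 3.15% called lower). The change was below 0 in all 12, and in 7393 of all 14217 genes. Their median log2 change was -0.42, against -0.01 over all genes and -0.10 over those left when only the brighter probe sets were fitted. The upper quartile of all probe sets was itself lower on day 7 (84.1 to 91.8) than on day 1 (94.3 to 95.9). All day 7 arrays lay below all day 1 arrays for 8 of the 12, against a background of 19.1%. The list was written with earlier results of these data known, and these counts are a description of it.

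Ppid encodes cyclophilin 40, a co-chaperone that binds Hsp90 at the same kind of site as FKBP51. It had intensities of 207, 273 and 278 on day 7, against 516, 464 and 533 on day 1. It was about as much lower as Fkbp5, at 2.00-fold (SE 0.14 on the log2 scale; limma adjusted p = 0.0190). Hsp90ab1, the constitutive Hsp90 itself, read 1592, 1827 and 1449 on day 7, against 2374, 2298 and 2504 on day 1 (1.48-fold lower; adjusted p = 0.0477). Ppid missed the threshold when day 1 replicate 1 (0.0753), day 1 replicate 3 (0.0592) or day 7 replicate 1 (0.0793) was left out. Hsp90ab1 missed it without any 1 array other than day 7 replicate 2 (0.0681 to 0.157) and without both arrays numbered 2 (0.0563).

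The next partners by adjusted p did not pass. For Stip1, which helps hand the receptor on to Hsp90, the log2 change was -0.70 (adjusted p = 0.0540), and for Ywhah, a 14-3-3 protein, it was -0.51 (0.0742). Stip1 passed with only the brighter probe sets (0.0392), an intensity trend (0.0378) and array weights (0.0293), without both arrays numbered 2 (0.0301) and without day 7 replicate 2 (0.0388), and Ywhah passed with array weights (0.0402). Fkbp4, which encodes FKBP52, the co-chaperone that acts opposite to FKBP51 on the receptor, read 135, 177 and 143 on day 7, against 229, 176 and 220 on day 1 (log2 change -0.46; adjusted p = 0.136). The ages overlapped in Fkbp4. Ptges3, the Hsp90 co-chaperone p23, had a change of -0.22 (0.371). Nr3c2, the mineralocorticoid receptor, which also binds corticosterone, read 22.5, 33.2 and 17.2 on day 7, against 33.1, 14.1 and 46.2 on day 1, too scattered for a direction (-0.25; adjusted p = 0.762). Hsp90aa1 was not analysed here.

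**Figure D3:**
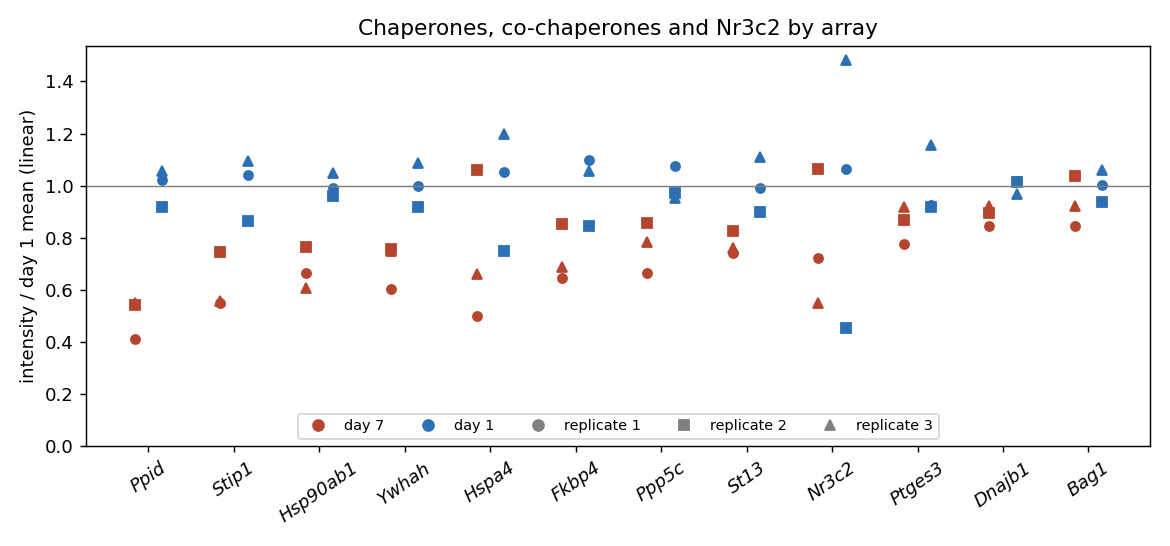
Intensity of each measured receptor partner on each array divided by its day 1 mean (linear scale, from 0), day 7 in red and day 1 in blue, with marker shape for the replicate. The genes run from the largest fall (Ppid) to the smallest change (Bag1), and the red points lie below the blue for 8 of 12.

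Nuclear receptor coregulators and the enzymes of steroid supply and removal held no called gene. None of 15 coactivators, corepressors and related factors passed limma's test, against backgrounds of 1.93% called higher and 3.15% lower. At an unadjusted p under 0.05, 1 was higher and 3 were lower (backgrounds 10.6% and 17.0%), and their median log2 change was -0.10. The smallest adjusted p-values were those of the chromatin remodeller Smarca4 (-0.62; 0.0768), the coactivators Ncoa3 (0.45; 0.125) and Ncoa1 (-0.47; 0.198), and the corepressor Ncor1 (-0.26; 0.191). With array weights, and when probe sets of 1 gene were averaged, 1 coregulator, Smarca4, was called lower.

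Of 13 genes of steroid supply and removal none passed limma (backgrounds 1.93% higher and 3.15% lower). At an unadjusted p under 0.05, 3 were higher and 0 lower (backgrounds 10.6% and 17.0%), and the median log2 change was 0.11. H6pd, which supplies the NADPH that drives Hsd11b1 towards active hormone, read 54.9, 47.5 and 33.6 on day 7, against 56.6, 46.1 and 64.8 on day 1 (log2 change -0.31; adjusted p = 0.408). The enzymes of adrenal steroid synthesis were low, some at control level and others above it. Cyp17a1 averaged 4.69 on day 7 and 4.24 on day 1. Cyp11a1, the first enzyme of the pathway, averaged 9.70 ± 0.956 on day 7 and 6.96 ± 0.440 on day 1 (SD, n = 3 each, limma adjusted p = 0.0820). Cyp21a1 (0.41; adjusted p = 0.208) and the hydroxysteroid dehydrogenase Akr1c14 (0.37; 0.169) were also low, with no array above 15.1.

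Other genes known to be induced by glucocorticoids moved both ways. Of 46 measured, 3 rose (Lpin1, Klf9 and Sdc1) and 3 fell (Pdk4, Angptl4 and Cdkn1c), which is 6.52% each way, against backgrounds of 1.93% higher and 3.15% lower. The median log2 change was -0.09. As background, several answer to other signals too: Pdk4 and Angptl4 are induced by fatty acids through PPAR receptors, Klf9 by thyroid hormone, and Cdkn1c is imprinted.

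Lpin1, a phosphatidate phosphatase of fat synthesis, read 56.7, 62.1 and 66.6 on day 7, against 33.3, 31.6 and 29.7 on day 1 (1.93-fold; adjusted p = 0.0141). Klf9, a Krüppel-like transcription factor, read 467, 477 and 428 on day 7, against 303, 263 and 260 on day 1 (1.66-fold; adjusted p = 0.0227). In both genes the ages lay clearly apart. With the mean of its probe sets the change of Klf9 shrank to 0.34 (adjusted p = 0.0910). For Sdc1, a cell surface proteoglycan, the log2 change was 1.21 (adjusted p = 0.0471). It was named after its value was seen, to complete the count, and its call was not followed singly under the alternatives.

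Pdk4, which restrains glucose oxidation, read 174, 365 and 195 on day 7, against 1083, 934 and 1095 on day 1 (log2 change -2.16; adjusted p = 0.0141; -1.37 with the mean of its probe sets). Angptl4, an inhibitor of lipoprotein lipase, read 80.8, 68.5 and 116 on day 7, against 228, 508 and 345 on day 1 (-1.97; 0.0222). Cdkn1c, an inhibitor of cyclin-dependent kinases, had a change of -0.71 (0.0243) and was likewise named to complete the count. Its call, too, was not followed singly under the alternatives. Each of these falls separated the ages. The calls of Lpin1 and Pdk4 were lost without day 1 replicate 1 (0.0504 and 0.0557) or day 7 replicate 1 (0.0679 and 0.0776), that of Angptl4 without day 1 replicate 3 (0.0657) or day 7 replicate 1 (0.109), and that of Klf9 in 4 of 6 such fits (0.0502 to 0.108) and without both arrays numbered 2 (0.0682).

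The other induced targets named here did not pass. The clock gene Per1 had a log2 change of -0.23 (adjusted p = 0.514), the phosphatase Dusp1 one of -0.45 (0.253), the transcription factor Cebpd one of -0.20 (0.618) and the NF-κB inhibitor Nfkbia one of -0.46 (0.328). Ddit4, a restraint on mTOR, had 0.13 (0.804), and Errfi1, a feedback inhibitor of the EGF receptor, had 0.53 (0.107), with all day 7 arrays above all day 1 arrays. Zbtb16 was not analysed here.

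Among genes known to be repressed by glucocorticoids, 1 of 24 measured, the protease stromelysin 1 gene Mmp3, rose, and none fell by limma (backgrounds 1.93% higher and 3.15% lower). At an unadjusted p under 0.05, 6 were higher and 1 lower (backgrounds 10.6% and 17.0%), and the median log2 change was 0.15. Most of the 24 had means below the median probe set at both ages, with Il6, Mmp13, Crh and Lif close to the trp controls. Among the 6 higher, Ccl20 and Ptgs2 were low, while Nos2 and Icam1 lay above the median probe set on every array. The lower quartile of all probe sets was itself higher on day 7 (7.32 to 7.9) than on day 1 (6.91 to 7.08). Its part in the upward lean of this list was not tested. Mmp3 read 95.6, 136 and 32.1 on day 7, against 4.99, 4.40 and 5.25 on day 1 (adjusted p = 0.0141). Since day 1 lay near the trp controls, no fold change is given. The call was lost with a pseudocount of 16 (0.0604), and when replicate 1 of day 7 (0.0793) or of day 1 (0.0554) was left out. The adhesion molecule Vcam1 had a change of -0.81 (0.0643), which passed with only the brighter probe sets (0.0448), with an intensity trend (0.0497), without day 7 replicate 2 (0.0250) and without both arrays numbered 2 (0.0342). The cytokine Il1b had a change of 0.55 (0.0954) and the nitric oxide synthase Nos2 one of 0.41 (0.116). Il1b was low, at 12.0, 12.4 and 17.9 on day 7 and 9.31, 8.98 and 9.33 on day 1, below the median probe set on every array. Its smallest change among the alternatives was 0.25.

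**Figure D4:**
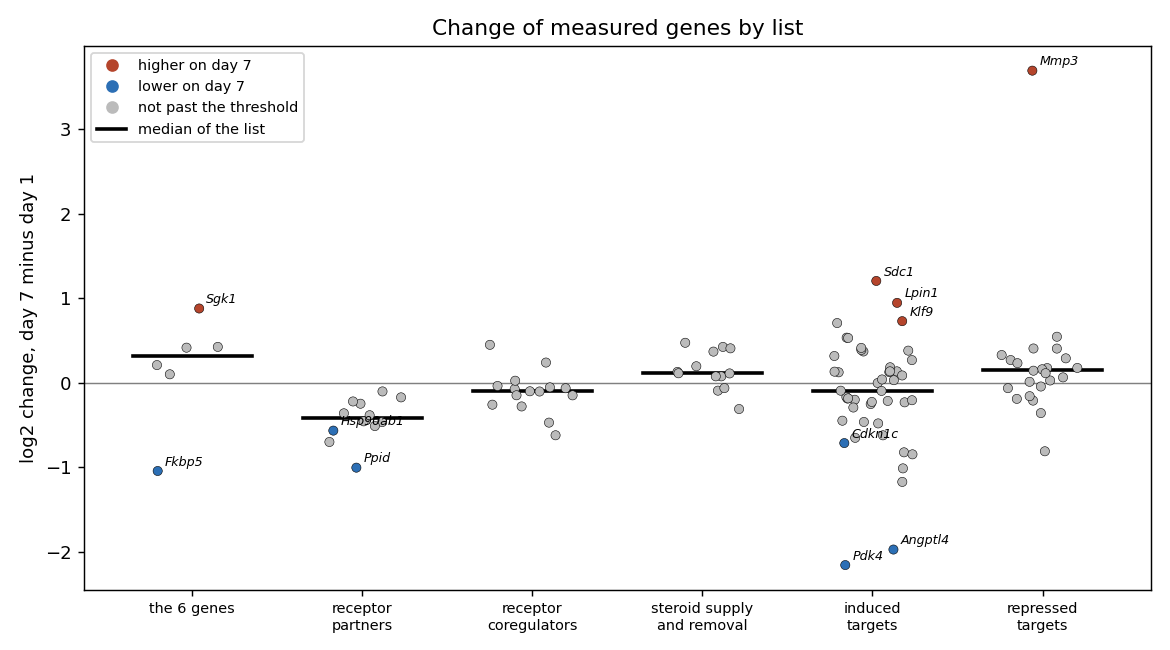
Log2 change (day 7 minus day 1) of every measured gene in the 6 lists, red where called higher on day 7, blue where called lower and grey where not past the threshold, with a bar at each list's median. All 12 receptor partners lie below 0, while the induced targets spread to both sides, with Sdc1, Lpin1 and Klf9 above and Pdk4, Angptl4 and Cdkn1c below.

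The genes nearest in profile were found by the root mean square (RMS) difference over the 6 arrays of log2 values centred on each gene's own mean, among 7103 genes of at least median brightness. For Sgk1 these were Ier5 (0.08) and Nudt16 (0.10), and 16 genes lay within 0.15. For Fkbp5 they were Wdhd1 (0.16) and Fcna (0.18), and 0 genes lay within 0.15. For Hsd11b2 they were Rab11fip5 (0.04) and Mapre2 (0.06), with 346 genes within 0.15, and for Tsc22d3 Slc39a7 (0.05) and Chpf2 (0.05), with 246. Nr3c1 lay nearest to LOC102555217 (0.07) and Deptor (0.08), and Hsd11b1 to C1h6orf120 (0.05) and Abr (0.08), with 38 and 48 genes within 0.15. The difference is absolute, and the profiles differ in size. The RMS of a gene's own centred values was 0.57 for Fkbp5, 0.46 for Sgk1 and 0.23 for Hsd11b2. The counts of near genes are therefore not set against each other. These are descriptions over 6 arrays, with no test.

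Tendon markers were bright on all arrays, with 7 measured genes summing to 46941 to 60416 on day 7 and 26047 to 43805 on day 1, and 1 of 7 (Dcn) rose. For these and the markers that follow, the backgrounds are 1.93% of all genes called higher and 3.15% called lower. Markers of other cells moved beside the 6 genes. The summed level of 16 skeletal muscle genes was 44318 to 65361 on day 7 and 73511 to 91511 on day 1 (5 fell, none rose), and that of 12 adipocyte genes was 3295 to 7076 on day 7 and 1627 to 1923 on day 1 (9 rose, none fell). The 9 cartilage genes summed to 4135 to 6886 on day 7 and 1546 to 3678 on day 1 (2 rose), and the 8 nerve genes to 745 to 5432 on day 7 and 557 to 715 on day 1 (1 rose). The nerve sums on day 7 were 3219, 745 and 5432 (replicates 1, 2 and 3), so replicate 2 lay close to the day 1 range. Day 7 replicate 2 also had the highest muscle sum (65361) and the lowest adipocyte sum (3295) of its age. Its tendon and cartilage sums lay between those of replicates 1 and 3. Day 1 replicate 2 had the lowest muscle sum of its age (73511). On the first principal component of all probe sets (51.1% of the variance), the arrays numbered 2 lay nearest the other age (14.5 on day 7, -14.8 on day 1).

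The 9 endothelial genes summed to 2564 to 3102 on day 7 and 2093 to 2831 on day 1 (1 rose, background 1.93%). The 10 macrophage genes summed to 1598 to 1944 on day 7 and 1741 to 2580 on day 1 (0 called, background 5.08% either way). The 10 epidermal genes summed to 203 to 474 on day 7, and on day 1 to 6215 on replicate 1 but 195 to 196 on replicates 2 and 3. Without day 1 replicate 1 the log2 change was 0.88 for Sgk1 (adjusted p = 0.0857) and -1.15 for Fkbp5 (0.0753), neither past the threshold. With all arrays these changes were 0.88 and -1.04. Over all genes the fit without it called 26 higher and 37 lower, against 274 and 448 with all arrays. No marker was at 0 on any array, and none lay at or below the trp controls on all arrays. The part of these cells in the changes of Sgk1, Fkbp5 and the receptor partners was not tested.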

How the data were processed

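Rat Genome 230 2.0 arrays were hybridized with amplified RNA of Achilles tendons, 3 arrays at each of 2 ages, grouped by the sample titles. The deposited table holds 1 linear intensity per probe set and array. MAS5 and RMA are named without a role or version, per the submitters' processing notes, and how background was corrected or arrays were scaled is not stated there. Values were taken as log2(intensity + 1) with no further normalization. Of 31099 probe sets 57 controls were left out. The ratio of the 3′ to the 5′ beta-actin control was 3.4 on day 7 replicate 3 and 1.8 to 2.8 on the other arrays. Each gene was represented by its brightest probe set (highest mean log2), out of the probe sets assigned to that gene only.

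Day 7 was compared with day 1 by limma 3.58.1 (lmFit, eBayes, two-sided) in R 4.3.3, adjusted by Benjamini-Hochberg over 31042 probe sets. The fit was first run on simulated intensities of 14217 genes with independent noise, as a check of the procedure alone. P-values measure the spread between pools, and 3 arrays per age limit the precision. Array numbers were not taken as pairs, since deviations of same-numbered arrays from their age means correlated at 0.02, -0.34 and -0.17 over 15521 probe sets. The members and lists were chosen with earlier results of these data known. Named genes were the 6 members, up to 4 genes per pathway list by adjusted p, a fixed set, and the 2 nearest profiles of each member. Hsp90aa1 and Zbtb16 of the fixed set, and 7 further listed pathway genes, were not analysed here. The 15 alternatives are in the closing section.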

Additional observations from a re-analysis of the deposited data

How the results depend on the processing

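The fits were repeated under 15 alternatives: 6 without 1 array, and 9 others. Nr3c1, Hsd11b2, Sgk1, Fkbp5 and Tsc22d3 kept their direction in all 15, and Nr3c1, Hsd11b1 and Tsc22d3 were called in none. Without 1 array the log2 change lay between -0.10 and 0.30 for Hsd11b1, between 0.36 and 0.48 for Hsd11b2, between 0.75 and 0.98 for Sgk1 and between -1.15 and -0.88 for Fkbp5, with Sgk1 called in 3 and Fkbp5 in 1 of 6 fits. Without both arrays numbered 2, Hsd11b1 turned to -0.092 and the calls of Sgk1 (0.89) and Fkbp5 (-0.97) were lost. Hsd11b2 was called with quantile normalization (0.53) and array weights (0.42), so that 2 of the 6 genes were higher there. With a pseudocount of 16 Fkbp5 (-0.85) was not called. The replicate block left 0 of the 6 genes called in either direction (Sgk1 0.88, adjusted p = 0.0759; Fkbp5 -1.04, 0.0602), and 0 genes in each pathway list; the fit without both arrays numbered 2 also called 0 of the 6. Over all genes the block called 25 higher and 8 lower, against 274 and 448.

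Without 1 array, 0 to 1 of the 6 genes were higher and 0 to 1 lower, 0 to 3 receptor partners lower, 0 to 3 induced targets higher and 0 to 5 lower, and 0 to 1 repressed targets higher and 0 to 1 lower. Array weights called 4 partners and 1 coregulator lower, 5 induced targets higher and 6 lower. The mean of probe sets called 1 coregulator lower and 1 induced target higher, and the fit without both arrays numbered 2 called 8 induced targets and 1 repressed target lower. Among repressed targets 0 were higher with the brighter probe sets, which leave Mmp3 out, and with a pseudocount of 16, and 1 was lower with the brighter probe sets and with an intensity trend. Without 1 array, uncalled changes spanned 0 for Nr3c2 (-0.72 to 0.10), Cebpd (-0.35 to 0.016) and Ddit4 (-0.17 to 0.32, and -0.22 without both arrays numbered 2). Over all genes, array weights called 538 higher and 897 lower, and a pseudocount of 16 called 182 higher and 393 lower. The fit without both arrays numbered 2 called 228 higher and 609 lower, against 274 and 448 with all arrays. Leaving out 1 array called 4 to 271 higher and 0 to 382 lower, the lowest without day 7 replicate 1. Causes were not tested.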
